A study of Mus musculus with 8 samples.

Results

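The genes described here are the transcription factor gene Nfe2l2, which encodes NRF2, its inhibitor Keap1, and 8 antioxidant genes, Nqo1, Hmox1, Gclc, Gclm, Sod1, Sod2, Cat and Txnrd1. Their members in the chromatin data are all regions that the deposited table annotates to 1 of these 10 genes by gene name, 162 of 489637 regions in all. The assay was ATAC-seq, where a transposase cuts and tags accessible chromatin, on nuclei of the gastrocnemius, a muscle of the calf, from mice aged 6 months. A region's value is its deposited signal, a read count scaled per library. The control group was 4 libraries labelled Vehicle and the other group 4 libraries labelled iMSBmal1KO, whose treatment is given as Tamoxifen. The library titles carry the word Control in both groups, also after iMSBmal1KO, and do not explain it. Every mouse of both groups carried the genotype Cre+:iMSBmal1 fl/fl, so the controls carried the Cre transgene and the floxed Bmal1 alleles too. Tamoxifen and the loss of Bmal1 therefore cannot be told apart in this design. The label iMSBmal1KO names an inducible, muscle-specific knockout of Bmal1, a transcription factor of the circadian clock, and nuclei of other cell types in the tissue are not targeted by such a model. The labels name neither the promoter that drives Cre nor the hour of tissue collection, and they do not say whether the tissue of 1 library came from a single mouse. The p-values measure the spread between these libraries.

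NRF2 activates genes against oxidative and electrophilic stress by binding, with a small MAF protein, to antioxidant response elements (AREs) in promoters and enhancers. KEAP1 holds NRF2 in the cytoplasm and passes it to a ubiquitin ligase, and oxidants that modify KEAP1 release it. Among the targets, NQO1 reduces quinones, HMOX1 breaks down haem, GCLC and GCLM form the enzyme that limits glutathione synthesis, and TXNRD1 keeps thioredoxin reduced. SOD1 and SOD2 convert superoxide to hydrogen peroxide in the cytosol and in mitochondria, and catalase, encoded by Cat, breaks hydrogen peroxide down. BMAL1 has been described as a regulator of Nfe2l2 in other cell types.

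The promoter sequences that lay under the most accessible regions are shown for the 4 genes in which the core letters of the ARE were found. RefSeq promoter windows of the build GRCm38.p6, from 250 bases before to 50 bases after a transcription start, were available for 8 of the 10 genes, in 10 windows. Hmox1 and Gclc had no entry. The core TGACNNNGC was searched on both strands and occurred in 4 of the 10 windows, against 12.4% of the 32851 RefSeq windows of that length. The 6 letters CACGTG, the E-box bound by clock factors, read the same on both strands and occurred in 0 of the 10, against 7.15% of all windows. These matches describe letters and are not evidence of binding. Each sequence is written 5′ to 3′ on the strand of its gene, and capitals mark the core or its reverse complement.
Nfe2l2, chr2:75704614-75704913, minus strand: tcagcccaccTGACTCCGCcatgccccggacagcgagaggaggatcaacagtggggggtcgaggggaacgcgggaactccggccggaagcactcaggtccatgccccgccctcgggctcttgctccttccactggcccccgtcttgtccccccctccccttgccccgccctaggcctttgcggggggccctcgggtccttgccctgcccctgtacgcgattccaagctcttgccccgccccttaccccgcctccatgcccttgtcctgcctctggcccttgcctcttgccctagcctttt
Gclm, chr3:122245307-122245606, plus strand: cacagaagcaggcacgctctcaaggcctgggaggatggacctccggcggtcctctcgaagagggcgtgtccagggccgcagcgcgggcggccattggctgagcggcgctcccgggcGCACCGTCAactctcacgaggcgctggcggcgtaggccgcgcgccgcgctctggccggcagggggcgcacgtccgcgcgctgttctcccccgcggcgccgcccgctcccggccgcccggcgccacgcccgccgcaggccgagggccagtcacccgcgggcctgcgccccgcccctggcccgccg
Txnrd1, chr10:82858956-82859255, plus strand: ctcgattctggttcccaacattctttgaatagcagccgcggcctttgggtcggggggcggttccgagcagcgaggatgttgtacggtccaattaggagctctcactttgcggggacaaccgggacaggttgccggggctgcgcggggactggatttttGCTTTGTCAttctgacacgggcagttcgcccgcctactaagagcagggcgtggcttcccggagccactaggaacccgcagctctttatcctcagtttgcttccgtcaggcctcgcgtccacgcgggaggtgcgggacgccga
Sod1, chr16:90220512-90220811, plus strand: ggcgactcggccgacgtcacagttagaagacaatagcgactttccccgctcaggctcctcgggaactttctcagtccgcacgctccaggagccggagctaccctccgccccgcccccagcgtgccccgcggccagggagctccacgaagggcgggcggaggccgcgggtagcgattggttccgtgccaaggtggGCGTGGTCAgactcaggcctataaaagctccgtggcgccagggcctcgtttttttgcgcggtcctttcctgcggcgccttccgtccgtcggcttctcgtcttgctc
In Nfe2l2 the match lay 240 to 232 bases before the start, on the strand of the gene. In Gclm it lay 134 to 126 bases before, in Txnrd1 92 to 84 and in Sod1 56 to 48, each on the opposite strand. The whole Nfe2l2 and Txnrd1 windows lay inside 1 deposited region each, and 282 and 283 of the 300 bases of the Gclm and Sod1 windows were covered by regions.

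Depth in regions ran from 4.31 to 29.5 M (mega) read equivalents, with Vehicle replicate 4 the shallowest. In this library 16.5% of the read equivalents were mitochondrial, against 1.11% to 5.51% in the other 7. Vehicle replicate 4 had the lowest summed signal of all 8 libraries in 8 of the 10 genes. Estimates without it are given below for some genes and regions of the 10. An estimate printed without such a value, as for the strongest Nfe2l2 intron regions and genes outside the 10, may also depend on this library. Over all 124901 regions tested the median log2 change (iMSBmal1KO minus vehicle) was 0.12, and it moved to 0.01 with median-of-ratios scaling, so the small changes below are read against the median of all features. The targeted gene, listed as Arntl, had a summed signal of 1942 to 2688 in vehicle and 3023 to 3421 in iMSBmal1KO. Its summed signal does not check the labels, because they do not name the floxed exon.

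Markers of fast fibres were the most accessible of the lists examined. The summed signal of Ckm, Acta1, Myh4, Myh1, Tnnt3 and Atp2a1 ran from 10553 to 18783 in vehicle and from 14777 to 17932 in iMSBmal1KO, against 75.3 to 101 for 3 slow-fibre genes. For macrophages, a cell type in which Hmox1 is strongly inducible, 5 of 6 marker genes had regions, with sums of 412 to 729 in vehicle and 440 to 579 in iMSBmal1KO. In endothelial, fibro-adipogenic, satellite, smooth muscle and adipocyte lists all the genes had regions, none was at 0 in all libraries, and the groups overlapped in each list. The 3 red cell genes had no region. In tissue made of several cell types, fewer nuclei of a type and less accessibility per nucleus cannot be told apart.

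By the signal summed over all regions of a gene, none of the 10 genes passed the test between the groups. The fit was limma-trend on log2(signal + 1) over the 22224 genes that passed the filter on low signal, with Benjamini-Hochberg adjustment. It called 0 of the 10 genes, against 0.13% of all genes tested, and none of the 10 had an unadjusted p under 0.05, against 9.48% of all. In none of the 10 were the groups free of overlap, against 4.94% of all genes. The estimates were positive in 9 genes, against 66.6% of all, and negative in Cat. The median over the 10 genes was 0.18, against 0.11 over all genes, and all but Nfe2l2 and Cat lay above the latter. Without Vehicle replicate 4 the 2 medians were 0.08 and 0.05. Promoter signal, summed over regions within 1000 bp of an annotated start, also gave 0 of 10 genes called, against 0.079% of 17720 genes, and none with an unadjusted p under 0.05, against 10.1%. The promoter groups overlapped in all 10 genes, where 4.49% of all promoters had groups that did not. Again 9 estimates were positive, against 72.8% of all promoters. There the median was 0.24 over the 10 genes and 0.15 over all genes. Without Vehicle replicate 4 these medians were 0.10 and 0.07, with 8 of the 10 promoters positive. These directions lean on the scaling, since 7 or 8 of the 10 sums and 6 or 7 of the 10 promoters stayed positive with median-of-ratios, trimmed-mean or loess scaling. Nfe2l2, Nqo1 and Hmox1 were the genes whose estimate turned negative in some of them, and Cat was negative in each. Under each of these scalings 7 or 8 sums and 7 promoters lay above the median of all genes, against 8 and 7 in the main fit.

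**Figure D1:**
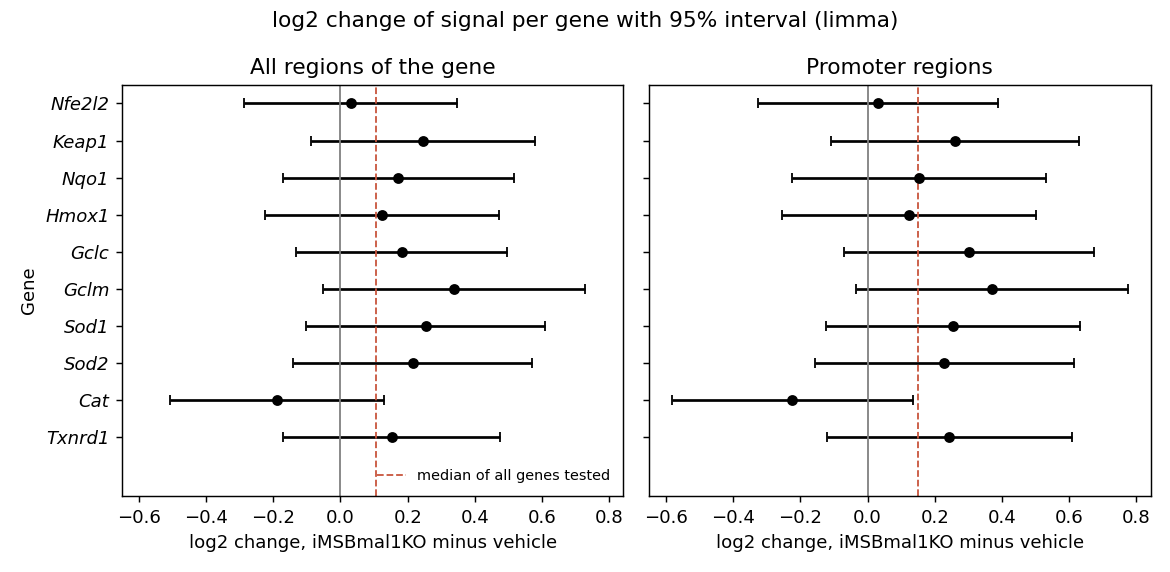
Log2 change of the signal of each gene (x axis, iMSBmal1KO minus vehicle, 4 libraries each) with its 95% interval from limma, for all regions (left) and promoter regions (right). Every interval includes 0, and the dashed lines mark the medians of all genes tested, 0.11 and 0.15.

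Nfe2l2 (ENSMUSG00000015839) had 1 of the most accessible promoters measured. Its summed signal in replicates 1 to 4 was 3487, 3484, 2838 and 2232 for vehicle, and 2744, 3297, 2847 and 3254 for iMSBmal1KO. The groups overlapped widely, and vehicle held both the highest and the lowest libraries. The means were 3010.3 ± 602 and 3036 ± 281 (SD, 4 libraries each), a change of 0.03 ± 0.15 in log2 units (SE) with an adjusted p in limma of 0.955. The 95% interval ran from -0.29 to 0.35, and without Vehicle replicate 4 the estimate was -0.11. A single region at the start, chromosome 2, 75703482 to 75705186, carried most of this signal, with 2434 ± 545 in vehicle and 2450.4 ± 287 in iMSBmal1KO (SD, 4 libraries each) and a change of 0.03 ± 0.18 in log2 units (SE, adjusted p in limma of 0.962). This region holds the promoter sequence printed above. Away from the start, 2 regions in intron 1 were the strongest, 18829 and 21115 bp from the annotated start. Their signal was 173 ± 36.5 and 204 ± 30.7 in vehicle and 167 ± 51.6 and 205 ± 54.7 in iMSBmal1KO (SD, 4 libraries each), with log2 changes of -0.08 and -0.02. The smallest p of the 10 tested Nfe2l2 regions belonged to a weaker one in intron 1, chromosome 2, 75692768 to 75692872, with a signal of 19.1 ± 8.91 and 29.0 ± 3.80 and a change of 0.74 ± 0.37 in log2 units (SE, adjusted p in limma of 0.555). Vehicle replicate 4 held 2 read equivalents there, and without it the change was 0.30.

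Keap1 (ENSMUSG00000003308), the inhibitor, had a summed signal of 552, 603, 621 and 431 in vehicle and 693, 723, 641 and 549 in iMSBmal1KO. In 3 of the 4 iMSBmal1KO libraries it lay above every vehicle library, and replicate 4 fell within the vehicle range. The log2 change was 0.25 ± 0.16 (SE, adjusted p in limma of 0.600), with a 95% interval from -0.09 to 0.58, and 0.13 without Vehicle replicate 4. Promoter regions held 97.4% of the Keap1 signal. The strongest, chromosome 9, 21238633 to 21239324, had 379 ± 81.9 in vehicle and 469 ± 81.7 in iMSBmal1KO (SD, 4 libraries each), a change of 0.32 ± 0.21 in log2 units (SE, adjusted p in limma of 0.619), and 0.15 without Vehicle replicate 4.

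Among the classical NRF2 targets, the subunits of glutamate-cysteine ligase had the largest promoter estimates in the window of 1000 bp, and neither passed the test. In a window of 500 bp Txnrd1 had the largest, 0.55, against 0.37 for Gclm and 0.33 for Gclc. The most accessible Txnrd1 region, annotated at -794 bp from a start, fell outside that window. The promoter signal of Gclm (ENSMUSG00000028124) was 483, 564, 432 and 316 in vehicle and 685, 689, 474 and 464 in iMSBmal1KO. Replicates 1 and 2 of iMSBmal1KO were above all vehicle libraries, and the other 2 lay inside the vehicle range. The log2 change was 0.37 ± 0.20 (SE, adjusted p in limma of 0.515), with a 95% interval from -0.03 to 0.77, and 0.21 without Vehicle replicate 4. The main Gclm region, chromosome 3, 122245325 to 122245774, also overlaps the 5′ end of Gm46822, a long noncoding RNA gene on the minus strand in RefSeq, so its signal cannot be assigned to either gene alone.

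The promoter signal of Gclc (ENSMUSG00000032350) was 310, 323, 295 and 225 in vehicle and 352, 389.7, 315 and 356 in iMSBmal1KO. Only iMSBmal1KO replicate 3 lay within the vehicle range. The log2 change was 0.30 ± 0.18 (SE, adjusted p in limma of 0.538, 95% interval from -0.07 to 0.67), and 0.19 without Vehicle replicate 4. Within it, the short region at the start, chromosome 9, 77754484 to 77754636, had 115, 152, 109 and 68.8 in vehicle and 192, 203, 115 and 174 in iMSBmal1KO. This was a change of 0.64 ± 0.26 in log2 units (SE), with an unadjusted p of 0.0211 and an adjusted p in limma of 0.50. Vehicle replicate 4 was the lowest library there, with 22 read equivalents. The change of this region ran from 0.43 to 0.82 when 1 library at a time was left out. A neighbouring region in coding exon 1, chromosome 9, 77754839 to 77755062, had nearly equal means, 109 ± 8.74 in vehicle and 116 ± 9.53 in iMSBmal1KO (SD, 4 libraries each), and a log2 change of 0.10.

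Nqo1 and Hmox1 showed smaller estimates. The promoter signal of Nqo1 (ENSMUSG00000003849) was 437, 441, 329 and 278 in vehicle and 387, 427, 401 and 408 in iMSBmal1KO, so all 4 iMSBmal1KO libraries lay inside the vehicle range. Its log2 change was 0.15 ± 0.19 (SE, adjusted p in limma of 0.736, 95% interval from -0.22 to 0.53). Without Vehicle replicate 4 it was 0.03, and without Vehicle replicate 1 or 2 it was 0.24 or 0.25. An intron 1 region of Nqo1, chromosome 8, 107396222 to 107396368, had the smallest p of this gene, with a change of 0.51 ± 0.33 in log2 units (SE, adjusted p in limma of 0.620). All 5 regions of Hmox1 lay within 1000 bp of its start, and 1 passed the filter. The promoter signal of Hmox1 (ENSMUSG00000005413) was 326, 288, 236 and 260 in vehicle and 309, 365, 283 and 255 in iMSBmal1KO, with overlapping groups and a change of 0.12 ± 0.19 in log2 units (SE, adjusted p in limma of 0.794, 95% interval from -0.25 to 0.50). It was 0.05 without Vehicle replicate 3 and 0.03 without iMSBmal1KO replicate 2, and 0.20 without either Vehicle replicate 1 or iMSBmal1KO replicate 4. The Hmox1 promoter estimate turned negative under all 3 other scalings, and that of Nqo1 under median-of-ratios and loess scaling.

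The 3 enzymes that act on superoxide and hydrogen peroxide did not share a direction, and none was called. The promoter signal of Sod1 (ENSMUSG00000022982) was 529, 520, 401 and 322 in vehicle and 531, 547, 469 and 528 in iMSBmal1KO, a change of 0.25 ± 0.19 in log2 units (SE, adjusted p in limma of 0.583). That of Sod2 (ENSMUSG00000006818) was 1305, 1232, 953 and 691 in vehicle and 1227, 1348, 1025 and 1178 in iMSBmal1KO, a change of 0.23 ± 0.19 in log2 units (SE, adjusted p in limma of 0.623). In both genes Vehicle replicates 3 and 4 were low, while Vehicle replicates 1 and 2 lay among the iMSBmal1KO values. Without Vehicle replicate 4 the promoter change was 0.11 for Sod1 and 0.04 for Sod2, and without Vehicle replicate 1 that of Sod2 was 0.35.

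Cat (ENSMUSG00000027187) was the only gene with negative estimates. Its promoter signal was 747, 697, 761 and 603 in vehicle and 565, 686, 499 and 665 in iMSBmal1KO. Replicates 1 and 3 of iMSBmal1KO lay below all vehicle libraries, and the other 2 lay inside the vehicle range. The log2 change was -0.22 ± 0.18 (SE, adjusted p in limma of 0.608), with a 95% interval from -0.58 to 0.13, and -0.14 without iMSBmal1KO replicate 3. The estimate was negative under each of the 18 other settings tried, but these reuse the same libraries and are not separate observations. Of all promoters tested, 10.6% had a lower estimate than Cat. A region inside Cat, chromosome 2, 103456789 to 103456955, had an estimate of the opposite sign. It is annotated as coding exon 4 of 1 transcript, 28170 bp downstream of that transcript's start. A region annotated as coding exon 9 of another Cat transcript lay nearer its start, at 21723 bp. The number 4 therefore does not mark an early exon. The exon 4 region went from 28.4 ± 9.65 in vehicle to 44.9 ± 8.81 in iMSBmal1KO (SD, 4 libraries each). The log2 change there was 0.68 ± 0.29 (SE, unadjusted p of 0.0295, adjusted p in limma of 0.513).

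**Figure D2:**
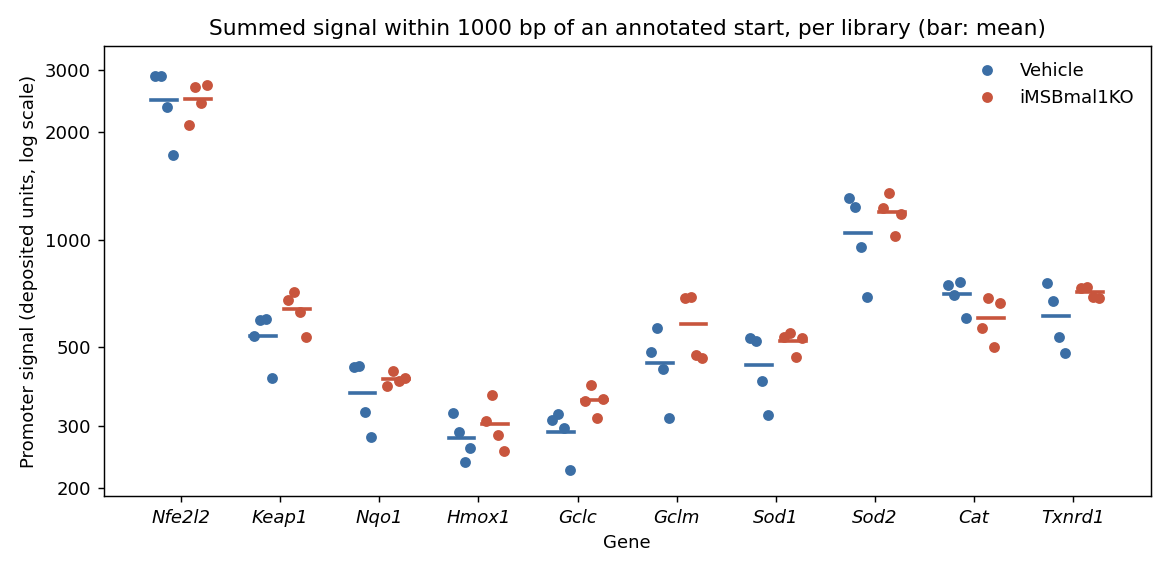
Promoter signal of the 10 genes (y axis, deposited units on a log scale, summed over regions within 1000 bp of an annotated start) in each library, with bars at the group means. The groups overlap in every gene, and Vehicle replicate 4, the rightmost vehicle point, is the lowest of the 8 libraries in 8 of the 10 genes.

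The single call among the member regions lay inside Txnrd1 (ENSMUSG00000020250), in a part of the gene away from its most accessible start. Of the 162 member regions 57 passed the filter and were tested, and this 1 passed the threshold, lower in iMSBmal1KO. Of all tested regions 0.0881% were called, and 0.0568% were called lower. The region, chromosome 10, 82844880 to 82845178, is annotated as 5′ UTR exon, 10929 bp downstream of the first annotated start. Its signal in replicates 1 to 4 was 93.8, 48.3, 50.8 and 34.4 for vehicle, and 9.42, 10.0, 13.1 and 25.1 for iMSBmal1KO. The groups did not overlap, but Vehicle replicate 4 and iMSBmal1KO replicate 4 were the closest, at 34.4 and 25.1. The means were 56.8 ± 25.7 and 14.4 ± 7.30 (SD, 4 libraries each), a ratio of 3.94. The log2 change was -1.92 ± 0.35 (SE, 95% interval from -2.65 to -1.18), with an adjusted p in limma of 0.0345. From 11 to 88 read equivalents per vehicle library and 11 to 22 per iMSBmal1KO library stood behind these values. Leaving out Vehicle replicate 1 or 3 ended the call, with adjusted p-values in limma of 0.204 and 0.153, and so did leaving out iMSBmal1KO replicate 1, 2 or 3, with 0.0622, 0.155 and 0.165. It also ended with the replicate number as a block, with an adjusted p in limma of 0.0749. The estimate stayed between -2.20 and -1.65 when any 1 library was left out.

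The called region is the last of 4 regions separated by at most 10 bp, chromosome 10, 82844616 to 82845178, of which the other 3 were too weak to be tested. Summed over the 4, with the called region included, the signal ran from 53.2 to 118 in vehicle and from 16.7 to 32.6 in iMSBmal1KO. The groups did not overlap, but the called region made up much of this sum, so this is not a second observation. In RefSeq the long noncoding RNA gene Gm38560, on the minus strand at chromosome 10, 82845215 to 82859008, ends 37 bp from the called region. The 5′ end of Gm38560 lies within the most accessible Txnrd1 region, chromosome 10, 82858942 to 82859506, which holds the Txnrd1 promoter sequence printed above. The signal of that region therefore cannot be assigned to either gene alone. That region was not called, and its estimate was positive. Its signal was 579, 497, 404 and 363 in vehicle and 542, 521, 505 and 492 in iMSBmal1KO, a change of 0.18 ± 0.19 in log2 units (SE, adjusted p in limma of 0.753). It was 0.08 without Vehicle replicate 4 and 0.30 without Vehicle replicate 1.

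Of the other 12 tested Txnrd1 regions, 10 had positive estimates and none was called. A region near an annotated internal start, chromosome 10, 82860483 to 82860609, was higher in every iMSBmal1KO library. It had 36.2, 34.9, 25.4 and 25.01 in vehicle and 57.8, 58.5, 50.1 and 55.2 in iMSBmal1KO, a change of 0.86 ± 0.26 in log2 units (SE), with an unadjusted p of 0.00303 and an adjusted p in limma of 0.346. It and the called region were the 2 member regions with groups that did not overlap, of 57 tested, where 5.48% of all tested regions had such groups, 3.62% with iMSBmal1KO higher and 1.87% with it lower. The called region made up 5.92% of the summed Txnrd1 signal in vehicle and 1.37% in iMSBmal1KO. The Txnrd1 promoter signal was 755, 669.9, 534 and 482 in vehicle and 731, 738, 689 and 686 in iMSBmal1KO, so all 4 iMSBmal1KO libraries lay inside the vehicle range. The promoter change was 0.24 ± 0.18 (SE, adjusted p in limma of 0.585), and 0.14 without Vehicle replicate 4. Over all 34 Txnrd1 regions the sum was 1184, 1029, 867 and 757 in vehicle and 1095, 1048, 973 and 1093 in iMSBmal1KO, a change of 0.15 ± 0.15 in log2 units (SE, adjusted p in limma of 0.721). The change of the sum was 0.05 without Vehicle replicate 4 and 0.26 without Vehicle replicate 1.

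**Figure D3:**
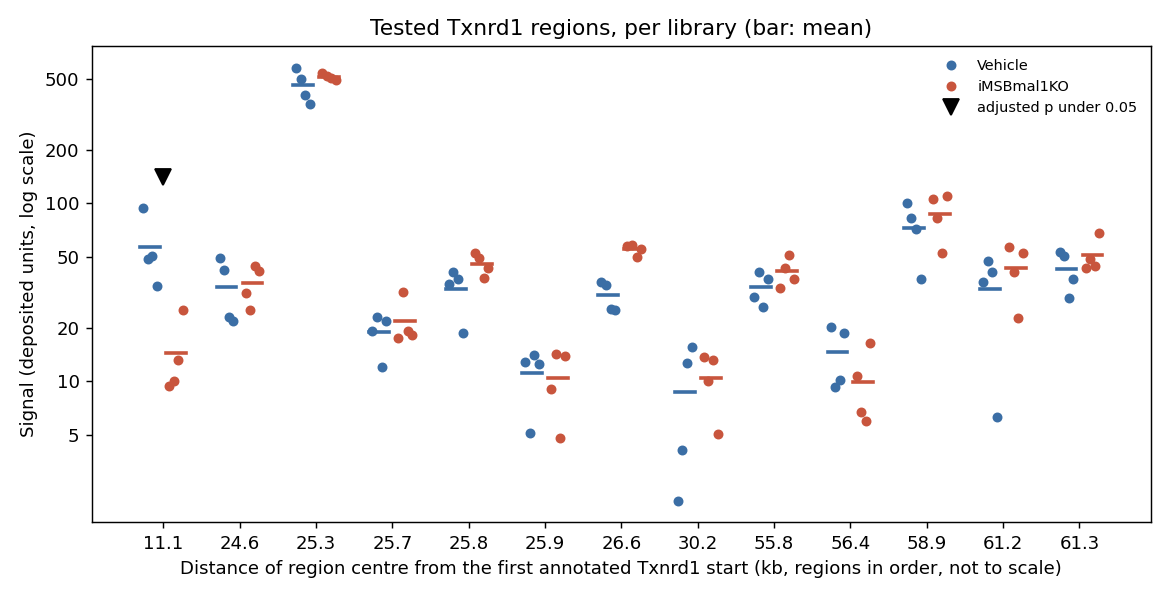
Signal of the 13 tested Txnrd1 regions (y axis, deposited units on a log scale) in order of their distance from the first annotated start (x axis, kb), per library with bars at the group means. The marked region is lower in all 4 iMSBmal1KO libraries, 9.42 to 25.1 against 34.4 to 93.8, while the most accessible region overlaps between the groups.

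By gene section the member regions stayed near the medians of all regions of the same kind. At transcription starts 27 member regions were tested, with a median log2 change of 0.17, against 0.17 for all 31331 tested regions of that kind. In introns the median was 0.05 over 20 member regions and 0.10 over all, and in coding exons -0.02 over 6 and 0.06 over all. The sections of 5′ UTR exons and transcript ends held 3 and 1 tested member regions. Over all 57, 38 estimates were positive (66.7%), against 62% of all tested regions. An unadjusted p under 0.05 was found in 4, 3 of them higher, in Txnrd1, Gclc and Cat, and 1 lower, the called Txnrd1 region. That is 7.02% of the member regions, against 9.22% of all tested. The 105 member regions that were not tested were weak, with a mean signal of at most 11.5 and a median of 4.77.

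**Figure D4:**
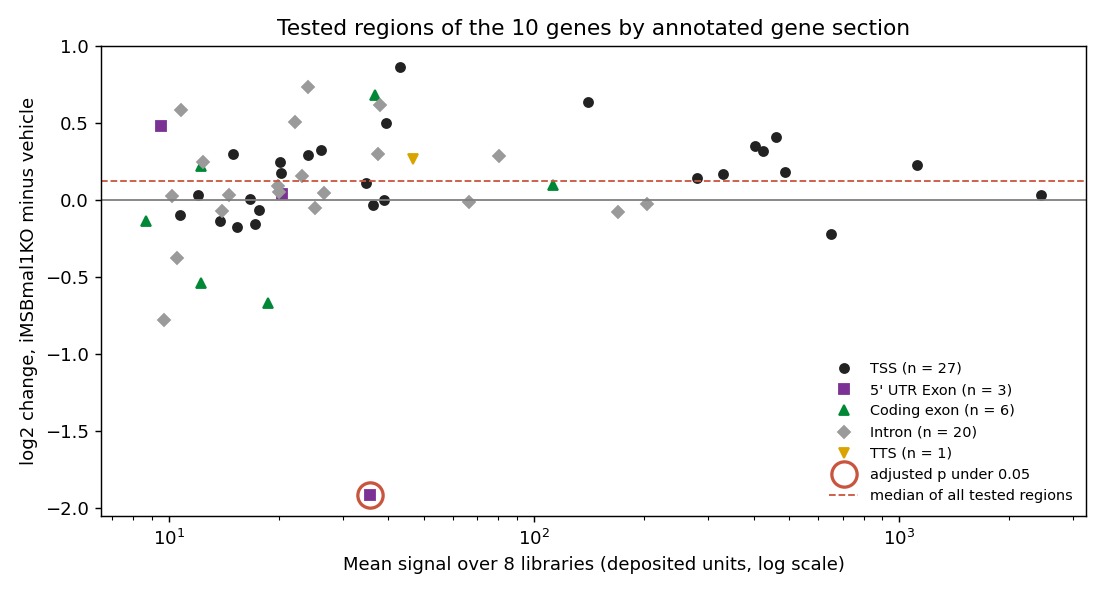
Log2 change (y axis, iMSBmal1KO minus vehicle) of the 57 tested member regions against their mean signal over 8 libraries (x axis, log scale), with symbols for the annotated gene section. The circled Txnrd1 region lies at -1.92, and the others lie between -0.78 and 0.86.

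The 10 promoters covered a wide range of levels. Per kb of promoter region, Sod2 was the most accessible, with a signal of 1536 ± 300 (SD over 8 libraries), above 98.5% of the 17720 promoters tested. Nfe2l2 followed with 1348 ± 221, at the 97.5th percentile, then Cat with 828 ± 115, at the 90.0th, and Gclm with 581 ± 144, at the 80.2th. Sod2 exceeded Nfe2l2 in 8 of 8 libraries, by 0.18 ± 0.18 on the log2 scale (SD over libraries), and Nfe2l2 exceeded Cat in 8 of 8. The remaining 6, Sod1, Txnrd1, Gclc, Hmox1, Nqo1 and Keap1, ran from 397 down to 316 per kb and did not form a clear order. Of these, each of the first 4 exceeded the next in 5 of 8 libraries, and Nqo1 exceeded Keap1 in 6. The order depends on how widely regions were drawn around each start.

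Other genes of the pathway gave no call. A list of 66 further genes for NRF2 partners, glutathione, thioredoxin, haem, NADPH supply, detoxification and related repair had 414 tested regions, of which limma called 0, against 0.0881% of all. An unadjusted p under 0.05 was found in 23, 13 higher and 10 lower, or 5.56%, against 9.22% of all tested. The median log2 change of these regions was 0.11, against 0.12 for all. By summed signal 64 of the genes were tested and 0 called, against 0.13% of all genes. An unadjusted p under 0.05 in limma was found in 3 of the 64, or 4.69%, against 9.48% of all genes. All 3 had positive estimates, as had 1692 of the 2106 genes with such a p over all. They were Blvra, a biliverdin reductase, at 0.46 ± 0.19, G6pdx, which supplies NADPH, at 0.61 ± 0.26, and the peroxiredoxin gene Prdx4, at 0.58 ± 0.26 (log2 change and SE, adjusted p in limma of 0.511, 0.511 and 0.516). Thioredoxins and peroxiredoxins reduce peroxides and oxidised proteins, and the 11 tested genes listed for this system had a median of 0.14, against 0.11 for all genes. Of the 12 partners and regulators of NRF2, which include Bach1, Cul3 and the small MAF genes, 9 had positive estimates and the median was 0.03. The smallest p of the list fell on a region annotated to a 5′ UTR exon of Gsta4, a glutathione transferase, chromosome 9, 78185895 to 78185985, which went from 13.7 ± 7.51 to 35.2 ± 10.3 (SD, 4 libraries each), a change of 1.40 ± 0.37 in log2 units (SE, adjusted p in limma of 0.250).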

How the data were processed

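The authors deposited 1 table of 489637 regions with a signal per library and gene annotation. The submitters' processing notes name Partek, Bowtie2, MACS2 and DESeq2 and the builds mm10 and GRCm39, without roles. Duplicate removal, transposase shift and region calling settings are not given in the sources used here. Values above 0 mostly lay on whole multiples of a library's own step, 98.3% to 99.8% of them by library (tolerance 0.02 reads). Some were not, so no count test was run, and value divided by step is called a read equivalent. All 10 genes overlapped their GRCm38.p6 RefSeq genes by the table's coordinates, which are given from 1 with both ends included. Promoter sequences are from RefSeq, GRCm38.p6.

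Main fits were limma-trend (limma 3.58.1, R 4.3.3) with robust moderation on log2(signal + 1), group as the only term, all 8 libraries, on regions, summed signal per gene and promoter signal per gene, each tested on simulated data. Features needed 0.762 read equivalents per M in at least 4 libraries and 15 in all. P-values were Benjamini-Hochberg adjusted over all features, with a threshold of 0.05. The log2(signal + 1) scale understates changes of weak regions. The 2 groups share replicate numbers, but deviations of same-numbered libraries from their group means correlated at only -0.06, 0.14, 0.02 and 0.02, so no pairing was assumed.

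Members and lists were chosen with earlier results of these data known. Named were the 10 genes, for each the region with the highest mean signal and that with the smallest p, any called region, and called members of the wider list. Outside this rule, and after values were seen, the text names the second Txnrd1 region, the Nfe2l2 intron pair, the Gclc exon region, Gsta4, the 3 wider-list genes and Msra. Alternatives were other pseudocounts, filters, scalings, promoter windows, a replicate term, a stricter threshold, leaving out each library and, chosen after seeing the data, merging abutting regions.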

Additional observations from a re-analysis of the deposited data

How the results depend on the processing

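The single member region past the threshold was not called (count 0) with the replicate block or at a threshold of 0.01, and the count ran from 0 to 1 when 1 library was left out. With the replicate block its limma adjusted p was 0.0749. The low correlations of same-numbered libraries do not exclude that replicate numbers pair them. With the block 100 regions were called in all against 110, 116 genes by summed signal against 29, and 116 promoters against 14. The Txnrd1 region was called in 11 of 17 other settings, with adjusted p from 0.00319 to 0.204, and its direction held in all 17. Counts of called members by summed signal, by promoter signal and of wider-list regions were 0 in every setting. Count tests planned as alternatives were not run, since the values were not counts. Median-of-ratios factors, trimmed-mean factors and loess turned the Nfe2l2 sum to -0.082, -0.080 and -0.0026 and its main region to -0.086, -0.076 and -0.036. The first 2 turned the Nfe2l2 promoter to -0.12 and -0.12. They also gave the Hmox1 promoter -0.031 and -0.025. Loess gave -0.10 for the Hmox1 promoter, -0.049 for its sum and -0.0050 for its main region. The Nqo1 promoter was -0.00038 with median-of-ratios factors and -0.053 with loess. Leaving out 1 library at a time, the Nfe2l2 sum ran from -0.11 to 0.11, its promoter from -0.13 to 0.12 and its main region from -0.13 to 0.12. A Sod1 exon region at -0.67 became 0.29 once merged with the abutting promoter region. With a 500 bp window the Txnrd1 promoter change was 0.55, because its main region, annotated at -794 bp from a start, then fell outside. Depth limits the weak regions most, with 4.31 M read equivalents in Vehicle replicate 4.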

Other observations

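In the wider list, regions of Msra, which encodes a methionine sulphoxide reductase that repairs oxidised protein, recurred among those with the smallest p. Of its 21 tested regions 16 lay in intron 5, and 12 of these had negative estimates, with a median log2 change of -0.45. An unadjusted p under 0.05 was found in 6 of the 21, against 9.22% of all tested regions. Of these 5 lay in intron 5 and were lower in iMSBmal1KO, and 1, in a 5′ UTR exon at chromosome 14, 64404027 to 64404272, was higher, with a log2 change of 0.65. No Msra region passed the limma threshold. The strongest of the 5, chromosome 14, 64154292 to 64154544, had 327, 240.4, 234 and 159 in vehicle and 81.8, 142, 110 and 212 in iMSBmal1KO, so iMSBmal1KO replicate 4 lay inside the vehicle range. Its log2 change was -0.85 ± 0.28 (SE, adjusted p in limma of 0.417). The region at the Msra start had a positive estimate, with 360.4 ± 109.6 in vehicle and 413 ± 45.7 in iMSBmal1KO (SD, 4 libraries each). The log2 change was 0.24 ± 0.22 (SE, adjusted p in limma of 0.715). All its iMSBmal1KO libraries lay inside the vehicle range, 250 to 484, of which Vehicle replicate 4 was the lowest. Abutting regions are not independent, and Msra was singled out after its values were seen.

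Among 22223 other genes, the summed signal of Tmcc1, Fkbp2 and Ppp6r3 followed that of Nfe2l2 most closely across the 8 libraries, with root mean square differences of 0.033, 0.041 and 0.042 on the centred log2 scale. The nearest of the other 9 NRF2 and antioxidant genes was Nqo1, at rank 311 with 0.092, and the farthest was Gclm, at rank 10843 with 0.27. All genes share the depth and scaling of the libraries, so this likeness is a description.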
